A study of Homo sapiens with 32 samples.

Results

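The measurements concern how the response of A549 cells to the gamma-secretase inhibitor RO4929097 differed between 24 h and 6 h of treatment. A549 is an established line from a human lung adenocarcinoma. The cells, plated at 35% confluency, received vehicle or 2 µM RO4929097, and RNA was taken after 6 or 24 h, which gives 4 groups of 4 Affymetrix arrays: vehicle 6 h, inhibitor 6 h, vehicle 24 h and inhibitor 24 h. All 4 groups hold the same line with no engineered change, the vehicle is not named, and the cells have 1 dose and no washout. Whether the 4 replicates of a group came from separate cultures is not in the labels, and every p-value here rests on array-to-array spread that may be technical only. The 16 A549 arrays are 16 of the 32 in the series, and the other 16 hold H460a, another established lung cancer line, under the same 4 treatments.

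The effect of the inhibitor at each time is the log2 level with RO4929097 minus that with vehicle, and the difference of differences is the effect at 24 h minus the effect at 6 h. Each of 19775 genes was placed in a class from 3 limma tests across all genes with Benjamini-Hochberg adjustment, and "called" means an adjusted p under 0.05. The difference of differences was called for 483 genes, 2.44% of those tested: 229 (1.16%) were higher and 254 (1.28%) lower at 24 h than at 6 h. At 6 h alone 597 genes (3.02%) were called, with 311 (1.57%) higher and 286 (1.45%) lower than vehicle. At 24 h alone 711 genes (3.6%) were called, with 394 (1.99%) higher and 317 (1.6%) lower.

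Genes called at 1 time only and in the difference made up the early-only class, 103 genes (0.521%), and the late-only class, 220 genes (1.11%). The sustained class, called at both times in the same direction, held 95 genes (0.48%), or 15.9% of the genes called at 6 h and 13.4% of those called at 24 h. The reversed class, called at both times in opposite directions with a called difference, held 5 genes (0.0253%). In a further 150 genes (0.759%) the difference was called while neither time was, and 785 genes were called at 1 time with no called difference, so that an early or late label could not be given. The classes are cut at a threshold: TMEM129 and HPX lay just inside it with adjusted p of 0.0499 for the difference, and CCDC120 and KLHL2 just outside with 0.0504.

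Gamma-secretase is a membrane protease whose best known substrates are the Notch receptors. When a ligand such as JAG1 binds a Notch receptor, gamma-secretase cuts the receptor inside the membrane, the freed intracellular domain joins the DNA-binding protein RBPJ in the nucleus, and the complex switches on genes such as HES1 and HEY1. Targets of the HES and HEY families encode basic helix-loop-helix repressors, so a change in them can pass on to further genes. Gamma-secretase also cuts many other membrane proteins. In the airway, Notch signalling is known for its part in choosing between secretory and ciliated cell fates.

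The arrays of the inhibitor 6 h group did not all look alike, which touches every result that uses 6 h. Mean deposited intensity was 468 to 496 in the 4 vehicle arrays at 6 h and 584 to 602 in the 8 arrays at 24 h. Inhibitor 6 h arrays 1 and 2 had means of 496 and 531, and arrays 3 and 4 had 589 and 583, in the range of the 24 h arrays. The 99th percentile of intensity showed the same split, at 6451 to 7723 against 9135 to 9599. The main results are therefore given also without inhibitor 6 h arrays 3 and 4, where 50 genes (0.253%) were called in the difference, 30 (0.152%) higher and 20 (0.101%) lower. At 6 h only 19 genes (0.0961%) were then called, 1 (0.00506%) higher and 18 (0.091%) lower. Without arrays 1 and 2 in their place, 2810 genes (14.2%) were called in the difference, 1511 (7.64%) higher and 1299 (6.57%) lower. The part of array quality in these counts was not tested.

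The classes differed in how far they kept their calls. Of the 220 late-only genes, 41 stayed late only without arrays 3 and 4, and of the 95 sustained genes 15 stayed sustained. Of the 103 early-only genes 1 stayed, RPS6KA5. The difference of differences kept its sign in all 103, but most arrays are shared with the fit that chose the genes, so this tests nothing. The 5 reversed genes all moved to the late-only class, with the difference still called. Scaling mattered too: 47.4% of the genes called in the difference were higher with quantile normalization, 16.3% with the values as deposited and 16% with each array centred on its median. At 6 h the same shares were 52.1%, 88.1% and 90.9%, and at 24 h they were 55.4%, 57.8% and 59.3%. With the values as deposited the difference stayed called for 101 of 103 late-only genes that fell and 50 of 117 that rose, and for 51 of 53 early-only genes that rose and 16 of 50 that fell.

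**Figure D1:**
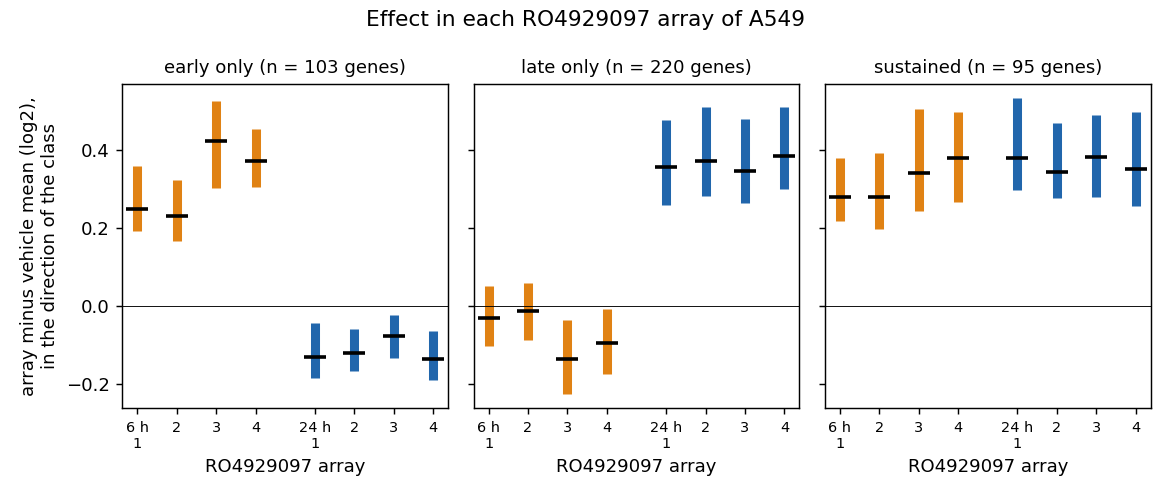
For each inhibitor array, the median (tick) and the quartiles (bar) over the genes of a class of the log2 level minus the vehicle mean of the same time, signed in the direction of the class. Early-only medians are 0.249 and 0.232 in 6 h arrays 1 and 2 and 0.425 and 0.373 in arrays 3 and 4, while late-only medians lie between 0.347 and 0.386 in all 4 arrays at 24 h.

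Array by array, the late-only genes had medians of 0.356, 0.372, 0.347 and 0.386 at 24 h in the direction of the class, and of -0.03, -0.01, -0.14 and -0.09 in the 4 arrays at 6 h. The sustained genes had medians of 0.28, 0.281, 0.342 and 0.38 at 6 h and 0.379, 0.345, 0.382 and 0.353 at 24 h. The calls that sorted the genes use these same values, so they describe the classes and test nothing. Over all 19775 genes the effects at 6 h and 24 h had a correlation of 0.00687, which was 0.0774 without arrays 3 and 4. The vehicle arrays are separate at each time, but genes are not independent replicates and the intensity split above enters the 6 h values.

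**Figure D2:**
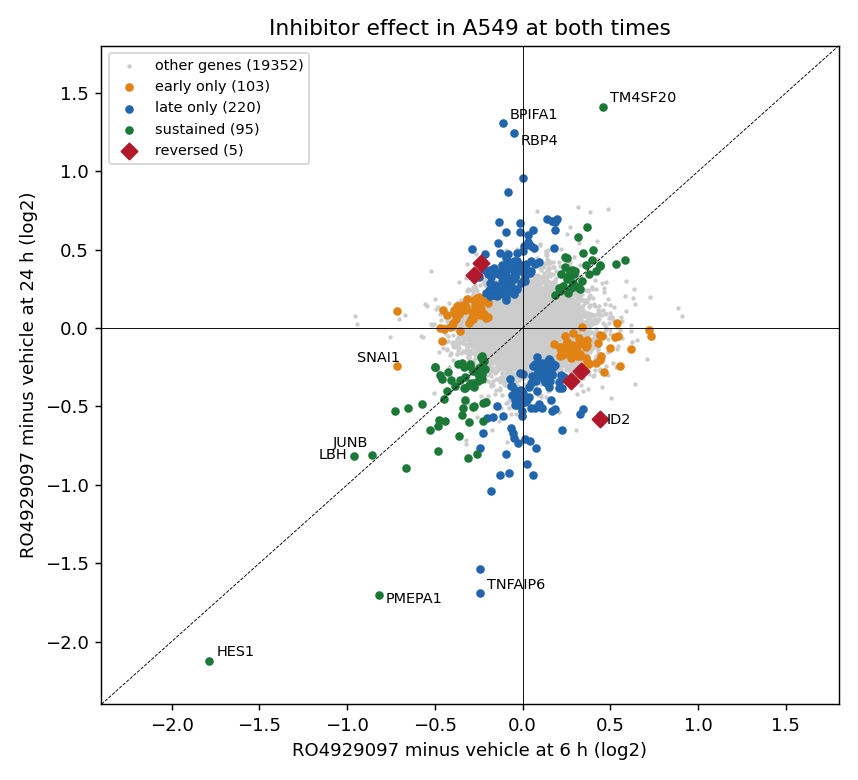
The inhibitor effect at 24 h against that at 6 h for 19775 genes, both in log2, with the genes of each class coloured, a few genes named and a dashed line where both effects are equal. HES1 lies far to the lower left with -1.78 at 6 h and -2.12 at 24 h, TNFAIP6 and RBP4 lie near the vertical axis, and ID2 lies in the lower right.

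The sustained class held 4 of 30 listed Notch targets, HES1 with the largest effect. HES1, a helix-loop-helix repressor and the textbook Notch target, read 9.78, 9.75, 9.79 and 9.84 with vehicle and 7.75, 8.29, 7.99 and 7.98 with inhibitor at 6 h. The 24 h values were 9.78, 9.89, 9.97 and 9.95 with vehicle and 7.64, 7.72, 7.84 and 7.89 with inhibitor. The groups did not overlap at either time. The level fell by 1.78 ± 0.09 (SE, adjusted p = 3.45e-09), 3.45-fold, at 6 h, and the effect at 24 h was -2.12 ± 0.09 (adjusted p = 9.85e-11), a 4.35-fold fall. The difference of -0.34 ± 0.12 was not called (adjusted p = 0.122), and with the values as deposited it was, at -0.55 (adjusted p = 0.029).

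HES4 and HEY1, repressors of the same family, fell by 0.58 ± 0.07 and 0.44 ± 0.07 at 6 h (adjusted p = 0.000225 and 0.00448) and by 0.49 and 0.59 at 24 h (adjusted p = 0.000207 and 6.93e-05). SNAI2, a zinc-finger repressor of epithelial genes, fell by 0.66 ± 0.15 at 6 h (adjusted p = 0.0304) and by 0.90 ± 0.15 at 24 h (adjusted p = 0.00195). Of 30 measured Notch targets on a list, 5 fell and none rose at 6 h, 5 fell and 1 rose at 24 h, and 4 were sustained: HES1, HES4, HEY1 and SNAI2. The difference was called for 1 of them, ERBB2, which was called at neither time. Over all genes 1.45% fell and 1.57% rose at 6 h, and 0.48% were sustained. At 24 h 1.6% of all genes fell and 1.99% rose, and 2.44% were called in the difference. HEYL (-0.09 at 6 h, 0.09 at 24 h), NRARP (-0.12 and 0.18), NOTCH3 (0.03 and 0.03) and the ligand JAG1 (0.09 and -0.18), all familiar Notch targets in other cells, were called in none of the 3 tests. The ligand JAG2 fell at both times, by 0.33 and 0.31. Without arrays 3 and 4 the 6 h calls of HES1, HES4 and SNAI2 stood (adjusted p = 2.42e-06, 0.0128 and 0.0255), and those of HEY1 and JAG2 did not (adjusted p = 0.0943 and 0.11). The SNAI2 call at 6 h was lost without vehicle 6 h array 2, 3 or 4, without inhibitor 6 h array 4, and without inhibitor 6 h arrays 1 and 2. In SNAI2, inhibitor 6 h array 3 read 6.605, inside the vehicle range of 6.461 to 6.87.

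HES1 and HES4 are the members where the promoter bears most directly on the drug's known target, and the 250 bases before each start are shown, 5′ to 3′ on the gene's own strand, from RefSeq on GRCh38.p14. Capitals mark GTGGGAA, the core letters bound by RBPJ, 85 bases before the HES1 start (chr3:194135898-194136147, plus strand) and 77 bases before the HES4 start (chr1:1000098-1000347, minus strand).
HES1: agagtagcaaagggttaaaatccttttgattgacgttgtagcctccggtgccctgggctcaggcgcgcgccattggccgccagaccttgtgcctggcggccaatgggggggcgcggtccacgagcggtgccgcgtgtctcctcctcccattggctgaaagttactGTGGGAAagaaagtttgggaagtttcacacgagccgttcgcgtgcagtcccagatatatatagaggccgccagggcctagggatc
HES4: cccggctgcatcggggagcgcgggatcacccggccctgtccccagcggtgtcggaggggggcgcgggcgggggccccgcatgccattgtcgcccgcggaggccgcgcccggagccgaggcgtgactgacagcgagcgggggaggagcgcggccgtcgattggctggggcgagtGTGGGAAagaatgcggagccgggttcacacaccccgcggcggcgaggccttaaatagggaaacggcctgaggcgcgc
Searched on both strands in the RefSeq windows of 300 bases, from 250 before to 50 after the start, GTGGGAA occurred in 5 of 51 promoters (9.8%) of sustained genes that fell, in 1 of 30 (3.33%) of sustained genes that rose, in 7 of 89 (7.87%) of early-only genes and in 6 of 175 (3.43%) of late-only genes. It occurred in 6.28% of all 27305 promoters and in 6.08% of those of genes tested. Promoters were found for 348 of the 423 genes in the 4 classes. A match describes letters and is no evidence of binding.

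Genes induced by TGF-beta fell beside the Notch targets. TGF-beta receptors phosphorylate SMAD proteins, which enter the nucleus and induce genes that include their own inhibitors. PMEPA1, a membrane protein that holds back SMAD signalling, read 12.63, 12.72, 12.69 and 12.57 with vehicle and 12.01, 11.81, 11.75 and 11.77 with inhibitor at 6 h. The same comparison at 24 h gave 12.30, 12.46, 12.34 and 12.27 with vehicle and 10.60, 10.74, 10.60 and 10.63 with inhibitor. No inhibitor array reached a vehicle array at either time, and the gap widened from 1.77-fold to 3.25-fold.

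The effect on PMEPA1 was -0.82 ± 0.06 at 6 h (adjusted p = 1.78e-06) and the effect at 24 h was -1.701 ± 0.064 (adjusted p = 5.15e-11), and the difference was -0.88 ± 0.09 (adjusted p = 6.36e-05; -0.96, adjusted p = 0.000321, without arrays 3 and 4). KLF10, a zinc-finger factor induced early by TGF-beta, fell by 0.26 at 6 h and 0.80 at 24 h, with a difference of -0.54 ± 0.09 (adjusted p = 0.00729). The receptor kinase TGFBR1 fell by 0.31 and 0.83, a difference of -0.51 ± 0.10 (adjusted p = 0.0146). Their differences lost the call without arrays 3 and 4 (adjusted p = 0.0616 and 0.0867), and their 6 h calls were lost with the values as deposited and with centred arrays.

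Of 32 measured SMAD feedback and TGF-beta induced genes, 9 fell at 6 h and 10 at 24 h, none rose at either time, and 7 were sustained. In the difference 4 were lower and none higher: PMEPA1, KLF10, TGFBI and SMURF2, of which PMEPA1 stayed called without arrays 3 and 4. Among all genes tested 1.45% fell at 6 h, 1.6% fell at 24 h and 1.28% were lower in the difference. The list's median difference was -0.01 against 0.03 over all genes tested. SKIL, a sustained member of the list that represses SMAD target genes, fell by 0.31 and 0.60. SMAD3, the signal carrier itself and a member of the ligand and receptor list, fell by 0.47 and 0.30; neither difference was called. At 6 h SMAD3 stayed called without arrays 3 and 4 (adjusted p = 0.00616) and SKIL did not (adjusted p = 0.197). SMAD7, the inhibitory SMAD, was -0.32 at 6 h (adjusted p = 0.166) and fell by 0.72 at 24 h (adjusted p = 0.00411), with no called difference (adjusted p = 0.231).

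Other sustained genes, transcription regulators among them, fell at both times with no called difference. JUNB, an AP-1 subunit, read 10.37, 10.41, 10.34 and 10.24 with vehicle and 9.54, 9.53, 9.48 and 9.35 with inhibitor at 6 h. After 24 h the values were 10.55, 10.71, 10.60 and 10.54 against 9.81, 9.81, 9.76 and 9.79. Its fall was 0.86 ± 0.06 and 0.81 ± 0.06 (adjusted p = 1.6e-07 and 1.8e-07), with a difference of 0.05 ± 0.08. LBH, a transcription cofactor, fell by 0.96 ± 0.06 and 0.81 ± 0.06 (adjusted p = 7.05e-08 and 2.55e-07). ANGPTL4, a secreted inhibitor of lipoprotein lipase, fell by 0.72 and 0.53, BHLHE40, a clock-linked repressor, by 0.41 and 0.33, IFFO2 by 0.53 and 0.65, and the haem-degrading enzyme HMOX1 by 0.65 and 0.51. JUNB, LBH, ANGPTL4, BHLHE40 and IFFO2 were among the 19 genes still called at 6 h without arrays 3 and 4, and HMOX1 was not (adjusted p = 0.207).

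The sustained genes that rose were fewer, 34 against 61. IL6R, the interleukin-6 receptor, rose by 0.58 and 0.43, GCH1, the first enzyme of tetrahydrobiopterin synthesis, by 0.53 and 0.41, ARID5B by 0.40 and 0.50, and INSIG1, which holds back sterol synthesis, by 0.32 and 0.58. None of these 4 was called at 6 h without arrays 3 and 4 (adjusted p = 0.0569 to 0.271), and with the mean of its probe sets ARID5B was 0.05 at 6 h and 0.11 at 24 h, called at neither. In 5 of the 95 sustained genes the difference was called, and in each the effect was larger at 24 h: PMEPA1, KLF10, TGFBR1, NHS and TM4SF20. TM4SF20, a 4-span membrane protein, rose by 0.46 ± 0.09 at 6 h and 1.41 ± 0.09 at 24 h, a difference of 0.95 ± 0.13 (adjusted p = 0.00164; 0.97, adjusted p = 0.0171, without arrays 3 and 4). In NHS, which acts on actin remodelling, the fall was 0.22 at 6 h and 0.59 at 24 h, and the difference was -0.37 ± 0.08 (adjusted p = 0.0249; 0.0616 without arrays 3 and 4).

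**Figure D3:**
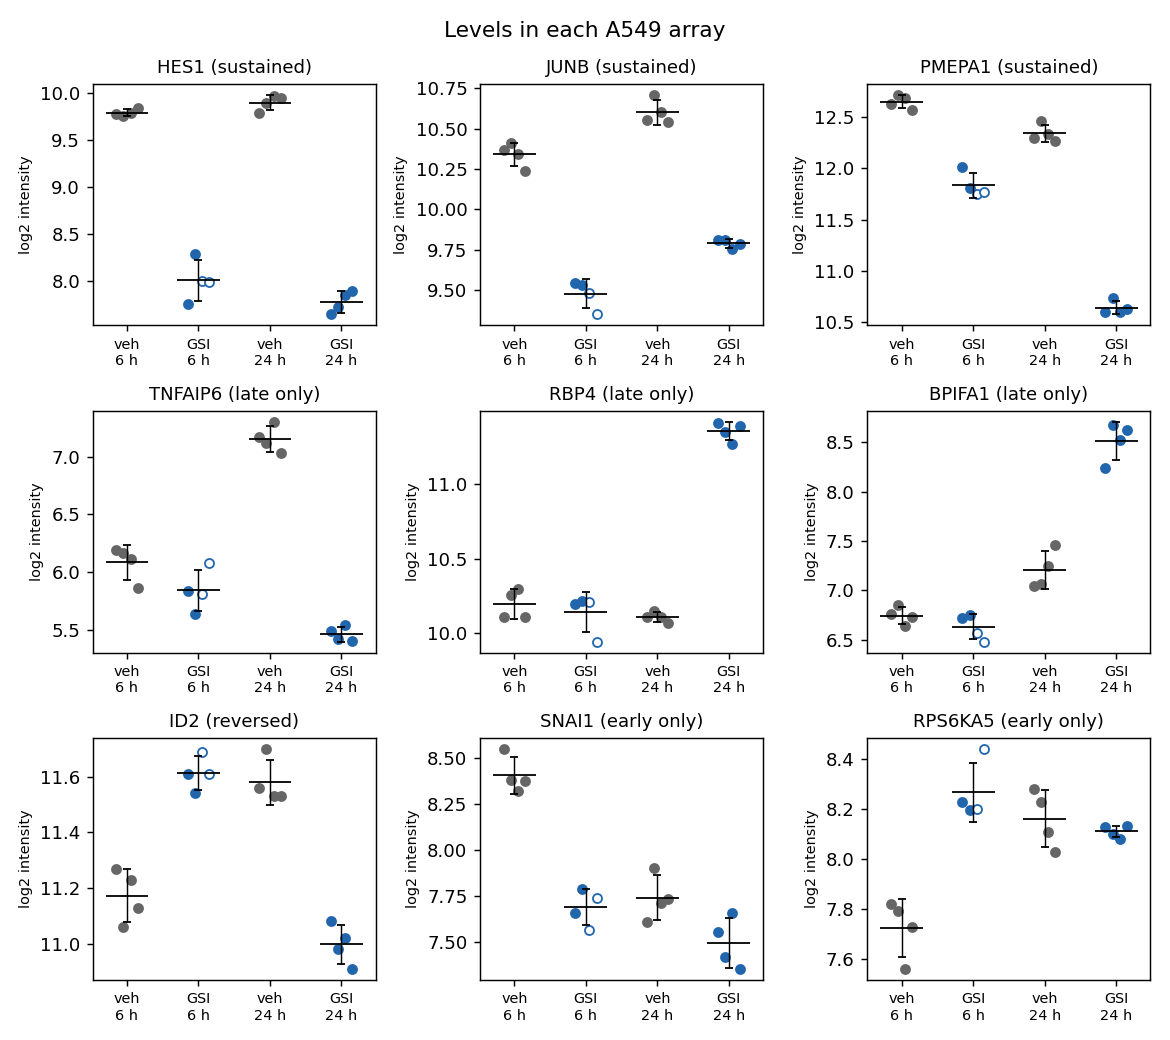
Log2 level in each of the 16 A549 arrays for genes of the sustained, late-only, reversed and early-only classes, with bars at the group means and whiskers of 1 SD over 4 arrays; inhibitor 6 h arrays 3 and 4 are open circles. HES1 is low with inhibitor at both times, TNFAIP6 and RBP4 part from vehicle at 24 h, and ID2 lies above vehicle at 6 h and below it at 24 h.

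Among the late-only genes that fell, matrix genes were among the largest changes. TNFAIP6 encodes a secreted protein that binds hyaluronan and stabilises the matrix. TNFAIP6 read 6.20, 6.16, 6.12 and 5.87 with vehicle and 5.83, 5.64, 5.82 and 6.08 with inhibitor at 6 h, where the groups overlapped. At 24 h vehicle had risen to 7.17, 7.12, 7.30 and 7.03, and the inhibitor arrays read 5.49, 5.42, 5.54 and 5.40. The effect was -0.24 ± 0.09 at 6 h (adjusted p = 0.114) and -1.69 ± 0.09, a 3.23-fold fall, at 24 h (adjusted p = 3.15e-09). The difference was -1.45 ± 0.12 (adjusted p = 9.63e-06; -1.35, adjusted p = 0.000212, without arrays 3 and 4).

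SPOCK1, a matrix proteoglycan, read 9.58, 9.51, 9.39 and 9.71 with vehicle and 9.33, 9.24, 9.44 and 9.45 with inhibitor at 6 h. Its 24 h values were 9.70, 9.67, 9.62 and 9.37 with vehicle and 8.57, 8.63, 8.58 and 8.42 with inhibitor, with no overlap. It fell by 1.04 ± 0.08 at 24 h (2.06-fold, adjusted p = 5.73e-07), and the difference was -0.86 ± 0.11 (adjusted p = 0.00142). The fibrillar collagen COL5A1 was -0.10 at 6 h and fell by 0.80 at 24 h, a difference of -0.70 ± 0.11 (adjusted p = 0.00646), and the secreted pentraxin NPTX1 had a difference of -0.84 ± 0.12 (adjusted p = 0.00185). Without arrays 3 and 4 all 3 differences stayed called (adjusted p = 0.0173, 0.00504 and 0.0171 in that order).

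Of 43 measured collagens and matrix proteins, 9 were lower in the difference and none higher, 7 of them late only; 8 fell at 24 h and 1 at 6 h. The basement membrane collagen COL4A1 (-0.61 ± 0.08, adjusted p = 0.00103) and the proteoglycan VCAN (-0.56 ± 0.09, adjusted p = 0.00723), both named after their values were seen, were among the 9, beside COL4A2, COL12A1 and LAMB1. Without arrays 3 and 4 the difference stayed called for 6 of the 9. The list's median was -0.05 against 0.03 over all genes, so the change lay in a part of the list. Over all genes 1.28% were lower. Matrix proteases and their inhibitors gave 2 lower of 29, SERPINE2 (-0.41) and MMP7 (-0.58), and 18 integrin subunits gave 1, the collagen receptor chain ITGA2 (-0.46), none of which stayed called without arrays 3 and 4 (adjusted p = 0.0756 to 0.19).

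Among ligands, BMP6 and NRG1 were late only. BMP6, a bone morphogenetic protein, was -0.22 at 6 h (adjusted p = 0.06) and fell by 0.67 at 24 h, a difference of -0.45 (adjusted p = 0.0196), and NRG1, a ligand of the ERBB receptors, had a difference of -0.49 (adjusted p = 0.0286). Both lost the call without arrays 3 and 4 (adjusted p = 0.071 and 0.156). Of 30 TGF-beta and BMP ligands and receptors 2 were lower in the difference and none higher, TGFBR1 and BMP6. Of 14 EGF family ligands and receptors 1 was higher, ERBB2, and 1 lower, NRG1. For all genes these shares were 1.28% lower and 1.16% higher. With the mean of its probe sets BMP6 had a difference of -0.09. Other large late falls were in C3orf80 (-0.24 at 6 h, a fall of 1.54 at 24 h) and in RNF182, a ubiquitin ligase (0.06 and a fall of 0.94). VGLL3, a cofactor of TEAD transcription factors (0.03 and a fall of 0.87), was the only 1 of 28 Hippo pathway and YAP genes called in the difference. Without arrays 3 and 4 the difference stayed called for RNF182 (adjusted p = 0.00439) and not for C3orf80 (0.161) or VGLL3 (0.108). C3orf80 read 5.675, 5.119, 5.064 and 4.827 with vehicle at 6 h, near the lower quartile of all probe sets (5.14). A fall at 6 h could therefore hardly be seen in C3orf80. Its vehicle arrays at 24 h read 6.117, 6.779, 6.769 and 6.743.

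The promoter of TNFAIP6, the gene with the largest late fall among the matrix genes, is shown for the 250 bases before the start (chr2:151357342-151357591, plus strand, GRCh38.p14). Capitals mark the AP-1 letters TGACTCA, which lie on the opposite strand and so read TGAGTCA, 129 bases before the start, and the SMAD-binding letters CAGACA, 110 bases before it.
TNFAIP6: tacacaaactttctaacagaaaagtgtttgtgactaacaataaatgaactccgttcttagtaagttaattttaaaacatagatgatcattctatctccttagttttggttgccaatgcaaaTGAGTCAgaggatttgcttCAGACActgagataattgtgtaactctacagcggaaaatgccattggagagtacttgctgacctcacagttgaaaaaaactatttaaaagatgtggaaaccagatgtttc
In windows of 300 bases, TGACTCA occurred on either strand in 6 of 79 promoters (7.59%) of late-only genes that fell, in 1 of 96 (1.04%) of those that rose, and in 4.92% of all promoters. CAGACA occurred in 13 of 79 (16.5%) and 10 of 96 (10.4%), against 16.8% of all. These motifs do not overlap each other in this promoter.

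Of 40 G2 and mitosis genes, 6 were lower in the difference and none higher: CDK1, KIF11, KIF14, KIF18A, KIF23 and TOP2A, of which 3 were late only. Of 39 replication and S phase genes, 3 were lower and none higher: UHRF1, which maintains DNA methylation, DTL, a part of a replication-coupled ubiquitin ligase, and the DNA repair enzyme UNG. The shares over all genes were 1.28% lower and 1.16% higher in the difference. KIF23, a kinesin of the dividing cell's midzone, was 0.14 at 6 h (adjusted p = 0.307) and fell by 0.34 ± 0.08 at 24 h (adjusted p = 0.0184), with a difference of -0.47 ± 0.11 (adjusted p = 0.0334). TOP2A, the topoisomerase of dividing cells, was 0.14 at 6 h and fell by 0.24 at 24 h, with a difference of -0.38 (adjusted p = 0.0346).

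Without arrays 3 and 4, none of the 6 mitosis and none of the 3 S phase genes kept the call in the limma test (KIF23 -0.46, adjusted p = 0.147; TOP2A -0.31, adjusted p = 0.189; UHRF1 -0.41, adjusted p = 0.0616; DTL -0.33, adjusted p = 0.108). With the probe set of largest variance the KIF23 effect at 24 h was -0.14 and not called. The medians were -0.08 for the mitosis list and -0.11 for the S phase list, against 0.03 over all genes. KIF23 read 9.56, 9.26, 9.26 and 9.50 with vehicle and 9.64, 9.38, 9.64 and 9.46 with inhibitor at 6 h, so the groups overlapped. At 24 h it read 9.34, 9.40, 9.40 and 9.51 against 9.03, 9.03, 9.18 and 9.05, with no overlap.

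The 250 bases before the KIF23 start (chr15:69414099-69414348, plus strand, GRCh38.p14) are shown because a cell-cycle homology element, the letters TTTGAA, marks many genes of G2 and mitosis. The match, in capitals, begins 55 bases before the start.
KIF23: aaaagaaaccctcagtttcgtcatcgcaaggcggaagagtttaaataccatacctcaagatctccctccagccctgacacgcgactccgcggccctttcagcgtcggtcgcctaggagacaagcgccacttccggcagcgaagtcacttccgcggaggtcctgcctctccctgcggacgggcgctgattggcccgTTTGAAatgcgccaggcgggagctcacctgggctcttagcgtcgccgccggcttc
TTTGAA occurred on either strand in 22 of 79 windows (27.8%) of late-only genes that fell, in 7 of 96 (7.29%) of those that rose, in 15.4% of all promoters and in 11.9% of those of genes tested. Only 3 late-only genes were on the G2 and mitosis list, so most of the 22 were not on it. The matrix genes MMP7 and VCAN were among the late-only genes with a match. The median GC content was 64.7% in the windows of the genes that fell and 65.5% in those of the genes that rose.

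The late-only genes that rose were led by secreted proteins of liver and airway. RBP4, the plasma carrier of retinol, read 10.11, 10.26, 10.30 and 10.11 with vehicle and 10.20, 10.22, 10.21 and 9.94 with inhibitor at 6 h. At 24 h it read 10.11, 10.15, 10.11 and 10.07 with vehicle and 11.41, 11.35, 11.27 and 11.39 with inhibitor. The groups overlapped at 6 h and lay over 1 log2 unit apart at 24 h. The rise at 24 h was 1.25 ± 0.07 (2.37-fold, adjusted p = 3.15e-09), the effect at 6 h -0.05 ± 0.07, and the difference 1.30 ± 0.09 (adjusted p = 1.74e-06; 1.23, adjusted p = 9.87e-06, without arrays 3 and 4).

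BPIFA1, an antimicrobial protein of airway secretions, read 6.76, 6.85, 6.64 and 6.73 with vehicle and 6.72, 6.75, 6.57 and 6.48 with inhibitor at 6 h. By 24 h the levels were 7.05, 7.07, 7.25 and 7.46 with vehicle and 8.24, 8.67, 8.52 and 8.62 with inhibitor. It rose by 1.31 ± 0.10 at 24 h (2.47-fold, adjusted p = 5.24e-07), and the difference was 1.42 ± 0.14 (adjusted p = 5.7e-05). The groups overlapped at 6 h only, and without arrays 3 and 4 the difference was 1.31 (adjusted p = 0.00178). FCGBP, a mucus protein, was at 0.00 at 6 h and rose by 0.96 ± 0.10 at 24 h, a difference of 0.96 ± 0.15 (adjusted p = 0.00397; 0.0384 without arrays 3 and 4).

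Of 34 airway goblet and club cell genes, 5 were higher in the difference and none lower: BPIFA1, BPIFB1, FCGBP, AGR2 and the protease inhibitor SLPI. All 5 were late only, and 8 of the list rose at 24 h and none at 6 h. Of all genes tested 1.16% were higher in the difference and 1.99% rose at 24 h. AGR2, which folds mucins in the endoplasmic reticulum, read 12.25, 12.27, 12.26 and 12.28 with vehicle and 12.50, 12.44, 12.59 and 12.26 with inhibitor at 6 h. The 24 h arrays gave 12.93, 12.95, 12.88 and 12.89 against 13.55, 13.61, 13.59 and 13.61. Its rise of 0.68 at 24 h came with a difference of 0.50 ± 0.08 (adjusted p = 0.00669), which was not called with the values as deposited (adjusted p = 0.15). The list's median difference was 0.14 against 0.03 over all genes, and 0.12 against -0.01 with the values as deposited; 4 of the 5 stayed called without arrays 3 and 4.

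Of 33 plasma protein and enterohepatic genes, 7 were higher and none lower in the difference: FGG, RBP4, HPX, SLC51B, TM4SF4, TM4SF5 and TM4SF20. At 24 h 10 of them rose, and at 6 h 1 did. For all genes the shares were 1.16% higher in the difference, 1.99% higher at 24 h and 1.57% higher at 6 h. SLC51B, a subunit of the basolateral bile acid exporter, was 0.20 at 6 h (adjusted p = 0.105) and rose by 0.69 at 24 h, with a difference of 0.50 ± 0.10 (adjusted p = 0.0184). TM4SF5 had a difference of 0.56 ± 0.12 (adjusted p = 0.0272), and neither stayed called without arrays 3 and 4 (adjusted p = 0.108 and 0.0935). The list's median difference was 0.14, and 0.01 with the values as deposited; 3 of the 7 stayed called without arrays 3 and 4.

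Of 30 lipid droplet and triglyceride synthesis genes 2 were higher in the difference and none lower, CIDEC, which was late only, and PNPLA2, and 4 rose and 1 fell at 24 h. CIDEC, which lets lipid droplets fuse, read 8.01, 8.09, 8.02 and 8.23 with vehicle and 8.07, 8.10, 7.88 and 7.95 with inhibitor at 6 h, and 7.89, 8.02, 8.09 and 7.99 against 8.77, 8.85, 8.94 and 8.92 at 24 h. The arrays overlapped at 6 h and did not at 24 h. The rise was 0.87 ± 0.07 at 24 h (1.83-fold) and the difference 0.95 ± 0.09 (adjusted p = 4.54e-05; 0.87, adjusted p = 0.000678, without arrays 3 and 4). Of 27 cholesterol and fatty acid synthesis genes, 11 rose at 24 h and 4 at 6 h, none fell, and 3 were higher in the difference: SREBF2, the main transcription factor of the pathway (0.42 ± 0.09, adjusted p = 0.0232), and the sterol enzymes DHCR7 (0.32, adjusted p = 0.0348) and NSDHL (0.30, adjusted p = 0.0486). All 3 lost the call without arrays 3 and 4, with the values as deposited and with centred arrays. Beside both lists, 1.16% of all genes were higher in the difference, 1.99% rose at 24 h and 1.57% rose at 6 h.

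Of 27 chaperone and degradation genes of the endoplasmic reticulum, 3 were higher in the difference and none lower, where 1.16% of all genes were higher. The 3 were CRELD2 (0.49 ± 0.08, adjusted p = 0.00507), HYOU1 (0.47 ± 0.09, adjusted p = 0.0148) and SDF2L1 (0.40 ± 0.09, adjusted p = 0.0275). CRELD2 alone stayed called without arrays 3 and 4 (adjusted p = 0.0371), HYOU1 and SDF2L1 lost the call with the values as deposited, and all 3 lost it with centred arrays. The list's median difference was 0.101, but -0.087 with the values as deposited and -0.0996 with centred arrays. Over all genes tested these medians were 0.032, -0.014 and -0.026. Other genes with late rises were PPL, a plakin of the cornified envelope (0.14 at 6 h, a rise of 0.70 at 24 h), HGD, an enzyme of tyrosine breakdown (-0.13 and 0.67), SERPINF1, a secreted serpin (-0.09 and 0.62), and SPRY1, an inhibitor of receptor tyrosine kinase signalling (0.16 and 0.68). Averaged over its probe sets, SPRY1 had a difference of 0.22, which was not called. Without arrays 3 and 4 the differences of PPL, HGD and SERPINF1 stayed called (adjusted p = 0.00704 to 0.0201) and that of SPRY1 did not (adjusted p = 0.149). With the probe set of largest variance the HGD difference was 0.20 and not called (adjusted p = 0.541), and it was not called with all 32 arrays in 1 fit either. HOXB2, a homeobox factor, was -0.29 at 6 h and rose by 0.51 at 24 h (difference 0.79 ± 0.18, adjusted p = 0.0332; 0.185 without arrays 3 and 4).

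The 5 reversed genes crossed over between the times. ID2, which blocks basic helix-loop-helix factors by pairing with them, read 11.27, 11.06, 11.23 and 11.13 with vehicle and 11.61, 11.54, 11.69 and 11.61 with inhibitor at 6 h. At 24 h it read 11.56, 11.70, 11.53 and 11.53 with vehicle and 11.08, 10.98, 11.02 and 10.91 with inhibitor. Every inhibitor array lay above every vehicle array at 6 h and below at 24 h, arrays 1 and 2 of the 6 h group included. The rise at 6 h was 0.44 ± 0.06 (adjusted p = 0.0015), the fall at 24 h 0.58 ± 0.06 (adjusted p = 1.61e-05), and the difference -1.02 ± 0.08 (adjusted p = 8.96e-06).

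Without arrays 3 and 4 the ID2 effect at 6 h was not called (0.40, adjusted p = 0.0572) while the difference was (-0.98, adjusted p = 0.000272). Its relative ID3 fell by 0.47 at 24 h (adjusted p = 4.73e-05) and by 0.21 at 6 h, where the adjusted p was 0.0468, the call was lost under 19 of 29 alternatives, arrays 3 and 4 left out among them, and the value was 0.02 with each array centred. In the list of 7 ID family genes and partners ID2 was the only one called in the difference, where 2.44% of all genes were called.

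PHLDA1, a gene induced by ERK signalling, rose by 0.28 ± 0.07 at 6 h and fell by 0.34 ± 0.07 at 24 h (difference -0.61 ± 0.10, adjusted p = 0.00442). The carbonic anhydrase CA2 read 7.25, 7.23, 7.37 and 7.43 with vehicle and 7.64, 7.70, 7.68 and 7.60 with inhibitor at 6 h, and 7.997, 8.01, 7.92 and 8.01 against 7.69, 7.59, 7.83 and 7.73 at 24 h. In CA2 the groups did not overlap at either time, and the difference was -0.61 ± 0.08 (adjusted p = 0.00148). VSTM2L fell by 0.24 and then rose by 0.41 (difference 0.65 ± 0.08, adjusted p = 0.000801), and FCGRT, the receptor that recycles IgG and albumin, fell by 0.28 and then rose by 0.34 (difference 0.62 ± 0.10, adjusted p = 0.0064). The differences of all 4 stayed called without arrays 3 and 4 (adjusted p = 0.00808 to 0.039), while their effects at 6 h did not (adjusted p = 0.109 to 0.515).

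The early-only class, 53 genes that rose and 50 that fell at 6 h, kept 1 gene, RPS6KA5, without arrays 3 and 4. RPS6KA5, a kinase downstream of ERK and p38, read 7.82, 7.79, 7.56 and 7.73 with vehicle and 8.23, 8.19, 8.20 and 8.44 with inhibitor at 6 h. After 24 h the levels were 8.28, 8.23, 8.11 and 8.03 against 8.13, 8.10, 8.08 and 8.13. The groups were apart at 6 h and overlapped at 24 h. The rise at 6 h was 0.54 ± 0.07 (adjusted p = 0.000952; 0.49, adjusted p = 0.0279, without arrays 3 and 4) and the difference -0.59 ± 0.10 (adjusted p = 0.00723; -0.54, adjusted p = 0.0418). With the mean of its probe sets the effect at 6 h was 0.25 and the difference -0.26, and neither was called (adjusted p = 0.0551 and 0.136).

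PLD5, a member of the phospholipase D family, read 7.37, 7.47, 7.05 and 7.08 with vehicle and 7.70, 7.83, 8.27 and 8.09 with inhibitor at 6 h, with arrays 3 and 4 highest. At 24 h it read 8.68, 8.75, 8.83 and 8.68 against 8.53, 9.01, 8.60 and 8.60. Its rise was 0.73 ± 0.13 at 6 h and its difference -0.78 ± 0.18 (adjusted p = 0.0312; -0.57, adjusted p = 0.185, without arrays 3 and 4). The vehicle level itself was 1.49 higher at 24 h than at 6 h, so the inhibitor arrays at 6 h lay between both vehicle groups.

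ETV1, an ETS transcription factor, rose by 0.72 at 6 h and was -0.01 at 24 h (difference adjusted p = 0.0484), GLCCI1 rose by 0.54, and CAVIN2, a caveola protein, by 0.50. The mitotic kinesins KIF14 (0.44 at 6 h, -0.20 at 24 h) and KIF18A (0.29 and -0.15) and the signalling inhibitor SPRY2 (0.25 and -0.09) were early only too. Of 24 ERK output genes 3 were lower and 1 higher in the difference, beside 1.28% lower and 1.16% higher over all genes. PHLDA1 and SPRY2 were among the lower and SPRY1 was the higher. None of ETV1, GLCCI1, CAVIN2, KIF14, KIF18A or SPRY2 stayed called in the difference without arrays 3 and 4 (adjusted p = 0.114 to 0.26).

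Among the early falls, SNAI1, a repressor of E-cadherin that Notch and TGF-beta are both known to induce, read 8.55, 8.38, 8.32 and 8.37 with vehicle and 7.66, 7.79, 7.57 and 7.74 with inhibitor at 6 h. At 24 h it read 7.61, 7.91, 7.71 and 7.74 with vehicle and 7.56, 7.42, 7.66 and 7.36 with inhibitor, so the vehicle level had dropped to near that of the inhibitor at 6 h. The fall at 6 h was 0.71 ± 0.08 (1.64-fold, adjusted p = 0.000145) and it stayed called without arrays 3 and 4 (-0.68, adjusted p = 0.00949). The effect at 24 h was -0.24 ± 0.08 (adjusted p = 0.107), and the difference of 0.47 ± 0.11 (adjusted p = 0.0352) lost the call without arrays 3 and 4 (adjusted p = 0.157) and with the values as deposited (adjusted p = 0.0756).

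Other early falls were in DYNLT2, a dynein light chain (0.72 at 6 h), INAVA (0.47), the pro-apoptotic BCL2L11 (0.46), the lipase PNPLA2 (0.38) and FURIN, the convertase that cuts Notch receptors on their way to the surface (0.24). The differences of BCL2L11, INAVA, PNPLA2 and FURIN were not called with the values as deposited, and none of the 5, DYNLT2 included, was called without arrays 3 and 4 (adjusted p = 0.122 to 0.204). In 91 of the 103 early-only genes the change in vehicle from 6 to 24 h was called and had the sign opposite to that of the difference, which means that the inhibitor 6 h arrays lay on the side of the 24 h vehicle. The vehicle comparison shares its arrays with the difference, so the count describes and tests nothing. In all, 8139 genes (41.2%) were called between vehicle at 24 h and 6 h, 3473 (17.6%) higher and 4666 (23.6%) lower at 24 h.

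At 6 h the groups did not overlap in 92 of the early-only and 88 of the sustained genes, and over all genes this was so in 8.72%. At 24 h they did not overlap in 216 of the late-only and all 95 sustained genes, and over all genes in 14.3%. The same arrays chose the classes, so these shares describe them. Among the 150 genes called only in the difference were RBMS3, an RNA-binding protein (0.64 at 6 h, -0.35 at 24 h), ZEB2, a repressor of epithelial genes (0.50 and -0.45), the ubiquitin ligase SMURF2 (0.18 and -0.29) and TMEM92 (-0.32 and 0.41). ZEB2 read 5.066, 5.133, 4.824 and 4.827 with vehicle at 6 h, under the lower quartile of all probe sets (5.14). None of the 150 stayed called without arrays 3 and 4. Among the 785 unresolved genes was GPAT3, an enzyme of triglyceride synthesis, which rose by 0.63 at 6 h (adjusted p = 0.00259) and was 0.25 at 24 h (adjusted p = 0.19), with a difference of -0.39 (adjusted p = 0.107); the 6 h effect was not called without arrays 3 and 4 (adjusted p = 0.0734).

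**Figure D4:**
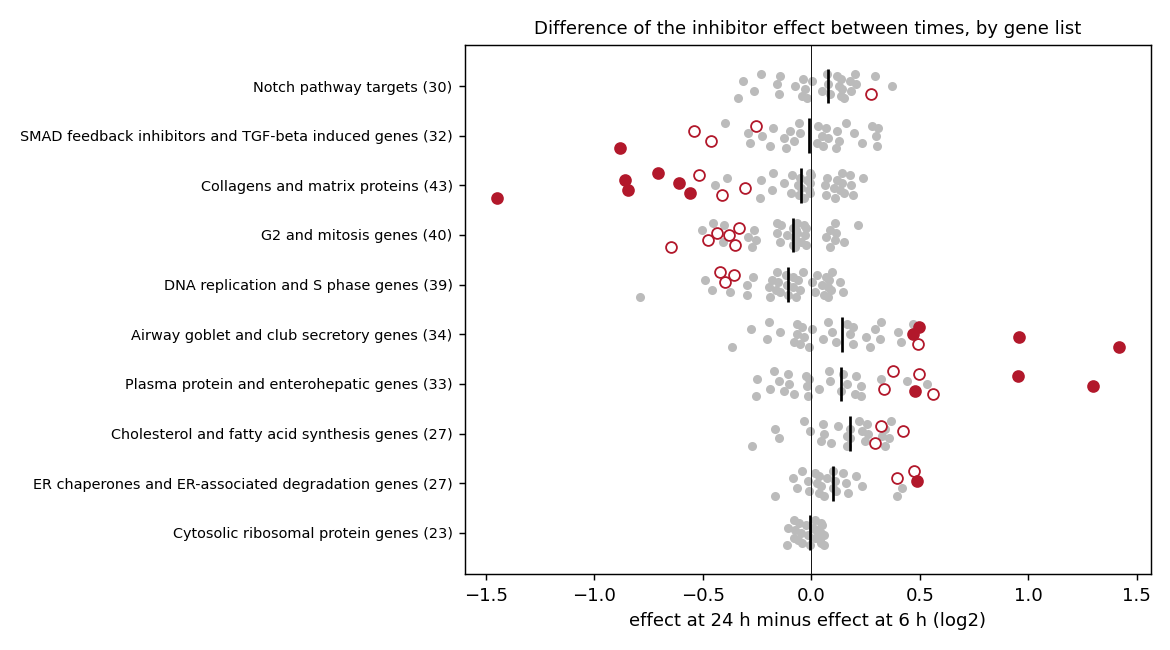
The difference of differences (log2) of each measured member of the gene lists: grey points were not called, open red points were called, filled red points were still called without inhibitor 6 h arrays 3 and 4, and black lines are medians. In every list shown that has a called member, the called members lie on 1 side only. Examples are the matrix list (9 lower of 43), the goblet and club list (5 higher of 34) and the plasma protein list (7 higher of 33). Of all genes 1.28% were lower and 1.16% higher.

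Other lists held few or no called differences. None of 30 NRF2 targets was called in the difference, although 7 rose at 24 h, and none of 17 alveolar type II genes, 27 p53 targets, 23 ribosomal protein genes, 30 oxidative phosphorylation genes or 27 Wnt genes. Of 28 Notch receptors, ligands and gamma-secretase genes 2 were higher, FURIN and the gamma-secretase subunit APH1B. Immediate early genes gave 1 higher and 2 lower of 34, and interferon response genes 1 higher of 34. Over all genes 1.16% were higher and 1.28% lower in the difference, and 1.99% rose at 24 h. Of 14 fibroblast and 15 leukocyte and endothelial genes none was called at 6 h, at 24 h or in the difference by limma.

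The line's labels were checked against markers. The epithelial genes KRT8, KRT18 and CDH1 averaged 13.6, 14.7 and 10.3, and EPCAM 5.60, where the median over all probe sets was 6.62 and the lower quartile 5.14. Of 6 alveolar type II markers, LAMP3 (4.65) and SFTPD (5.13) lay under that lower quartile and ABCA3 (8.98), SFTPC (8.33), SFTPB (7.70) and NAPSA (7.64) above the median. Of 6 fibroblast markers 4 lay above the median, COL1A1 (9.26) highest, and LUM (5.07) lay under the lower quartile, as did the leukocyte gene MS4A1 (5.01) and the endothelial gene CDH5 (4.91), while CD14 (8.80) and PECAM1 (7.62) lay above the median. In bulk RNA, fewer cells of a type and less RNA per cell cannot be told apart.

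H460a cells given the same inhibitor served as the comparison. In H460a 3 genes (0.0152%) were called at 6 h, all higher, none (0%) at 24 h, and 2 (0.0101%) in the difference, both lower: DNAJB9 (-0.75) and HERPUD1 (-0.71), which serve protein folding and degradation in the endoplasmic reticulum. The limma count in the difference was 3 (0.0152%), all lower, without vehicle 6 h array 3, whose beta-actin signal was 2.19 higher at its 3′ than its 5′ probe set, against 0.16 to 0.42 in the other H460a arrays. The late-only genes of A549 had the same sign in H460a at 24 h in 70% of cases, with a median size in H460a of 0.04 against 0.37 in A549. At 24 h the share was 68.9% for the early-only genes and 72% for those called only in the difference. It was 53.7% for the sustained genes and 52.4% for all genes. At 6 h, the time of the early-only calls, the early-only share was 53.4% against 52.6% for all genes.

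The test of the line difference, the A549 difference of differences minus that of H460a, called 15 genes (0.0759%), 7 higher (0.0354%) and 8 lower (0.0405%). The 8 lower were PLD5, ID2, SPOCK1, TNFAIP6, TFPI2, PMEPA1, DCDC2 and RNF182, and the 7 higher were BPIFA1, AGR2, ASS1, HOXB2, DIO1, DNAJB9 and HERPUD1. TNFAIP6 was -1.45 in A549 and 0.20 in H460a, PMEPA1 -0.88 and 0.09, ID2 -1.02 and 0.06, and BPIFA1 1.42 and 0.08. For DNAJB9 and HERPUD1 the difference of differences was -0.04 and -0.07 in A549 and was called in H460a. Without H460a vehicle 6 h array 3 the count was 24 (0.121%), 15 higher (0.0759%) and 9 lower (0.0455%), and without A549 inhibitor 6 h arrays 3 and 4 it was 17.

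**Figure D5:**
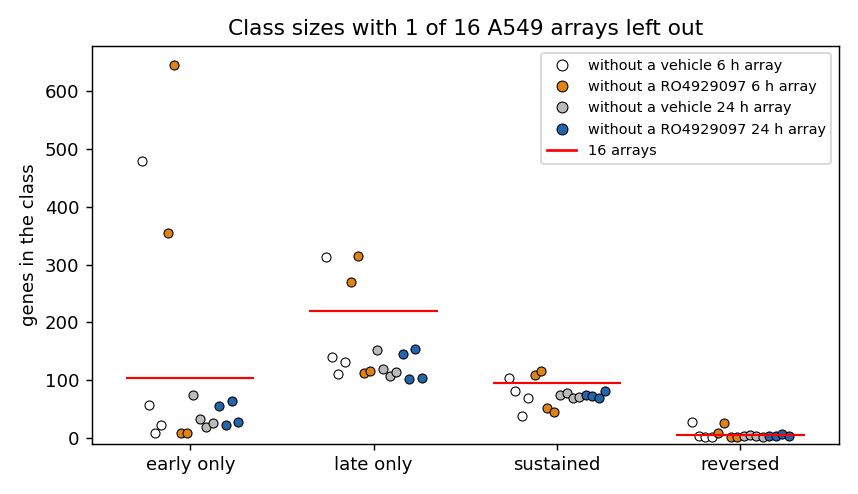
Number of genes in each class when 1 of the 16 A549 arrays is left out, with the number over all 16 arrays for comparison. Late only ranges from 102 to 314 genes, sustained from 38 to 116, early only from 8 to 646 and reversed from 2 to 27.

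Leaving out single arrays moved the classes by different amounts. The count called in the difference fell to 139 without vehicle 6 h array 3 and rose to 1415 without inhibitor 6 h array 2. The early-only class ranged from 8 to 646 genes, the late-only class from 102, without inhibitor 24 h array 2, to 314. The differences of TNFAIP6, RBP4, BPIFA1, CIDEC, PMEPA1, SPOCK1, ID2, FCGBP, SERPINF1, TM4SF20, VSTM2L and FCGRT stayed called without each array in turn. Probe set choice moved several named differences: with the mean of a gene's probe sets TGFBR1 was -0.25, NHS -0.09, SERPINE2 -0.21, NRG1 -0.32, ETV1 -0.23, CAVIN2 -0.40, GLCCI1 -0.20, DYNLT2 0.22, BCL2L11 0.15, RBMS3 -0.21, ZEB2 -0.16 and TMEM92 0.41, none of them called. Other probe sets of the late-only genes had the same sign of difference in 202 of 266 cases, and those of the early-only genes in 85 of 114.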

How the data were processed

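RNA from 32 samples was hybridised to Affymetrix arrays (15 µg of RNA per sample, per the labels' protocols), and the deposited table gives a linear intensity for each of 54675 probe sets, made with RMA per the submitters' processing notes, with the version not given in the sources used here. RMA summarises probes before deposit, so saturation and background cannot be examined from the deposited intensity. Mean deposited intensity ranged from 468.1 to 613.5 over the 32 arrays, so whether RMA's normalization step ran jointly over them is not known. Arrays have no read depth, and their number, 4 per group, limits the precision: the median SE was 0.0745 for an effect and 0.105 for the difference of differences (log2).

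The intensities were put on the log2 scale and quantile normalized over the 16 A549 arrays, separately from the 16 H460a arrays. Of the probe sets, 62 controls, 1801 with several symbols and 11721 with no gene in GEO's platform annotation were left out. Among the 41091 with 1 symbol, the brightest by mean over the 32 arrays stands for its gene, a choice among several for 10523 genes; no filter on dim genes was set. limma 3.58.1 in R 4.3.3 fitted 4 group means with eBayes (prior 5.05 and total 17.0 degrees of freedom). The line difference came from 1 fit of all group means over the 32 arrays, with 1 residual variance per gene shared by both lines. On simulated data for the A549 difference over 19775 genes, limma made 9 false calls. It recovered 10% of changes of 1.25-fold, 82% of 1.5-fold, 98% of 2-fold and 100% of 4-fold. All recovered genes fell in the late-only class, so recovery of early-only, sustained or reversed genes was not tested. These values hold for the simulated data only. The rate of false calls in the real arrays, with the intensity split among the earlier inhibitor arrays, was not tested. Promoters came from RefSeq (GRCh38.p14).

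Named genes were the 10 largest called differences in each direction, up to 8 per class and direction, 19 set in advance and up to 4 called plus 2 other members per list. The classes, lists and genes were chosen with earlier results of these data known. The series text spells the compound RP4929097-001-003 and the line H460; the sample labels' spelling is used. Alternatives were the scaling, probe set choice, dim-gene filter, eBayes setting, array weights, a replicate block, a size minimum and left-out arrays.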

Additional observations from a re-analysis of the deposited data

Results flagged for a closer look

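The effect of RO4929097 differed between 24 and 6 h in 483 genes of A549 by the limma test of the difference, and 15 genes differed in that difference between A549 and H460a. The line differences (log2, A549 minus H460a) were -0.97 for PMEPA1, -1.65 for TNFAIP6, -0.99 for SPOCK1, -1.44 for RNF182, -1.11 for PLD5 and -1.08 for ID2 on the lower side. On the higher side they were 1.34 for BPIFA1, 0.60 for AGR2, 1.37 for HOXB2, 0.71 for DNAJB9 and 0.64 for HERPUD1.

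Single arrays lay far from the other 3 of their group in 17 of 368 combinations of 92 genes and 4 A549 groups, where chance gives about 1 in 20. Among vehicle arrays at 6 h, array 1 was the one apart in 3 genes: high for JAG1 (11.5) and PHLDA1 (11.6) and low for TM4SF5 (6.80). Among inhibitor arrays at 6 h, array 4 was low for LBH (9.08) and RBP4 (9.94) and high for RPS6KA5 (8.44), array 1 was high for JAG2 (8.15) and array 3 low for HEYL (7.85). Among vehicle arrays at 24 h, array 1 was low for SMAD3 (10.6) and C3orf80 (6.12), array 2 low for BHLHE40 (12.2), CAVIN2 (7.97) and DYNLT2 (6.65), and array 4 high for FCGRT (9.67). Among inhibitor arrays at 24 h, array 1 was low for BCL2L11 (9.70), array 2 high for PLD5 (9.01) and array 3 high for KIF23 (9.18).

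The beta-actin signal was 0.214 higher (log2) at the 3′ than the 5′ probe set in A549 vehicle 6 h array 1, next to 0.148 in the nearest array, and 2.19 higher in H460a vehicle 6 h array 3, next to 0.29. Mean intensity was 593 in H460a vehicle 24 h array 2, next to 601.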

How the results depend on the processing

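Of 179 called gene values in A549, 57 kept direction and call under every one of up to 29 alternatives and 122 lost the call under at least 1; of 97 uncalled values 28 were called under at least 1. ID3 at 6 h turned from -0.21 to 0.0161 with centred arrays. The cause of the changes below was not tested, except that the size minimum and the dim-gene filter change what is counted. With the values as deposited the counts were 817 for the difference, 2977 at 6 h, 513 early only and 14 reversed. With centred arrays they were 3039 at 6 h, 403 at 24 h, 392 early only, 126 late only and 11 reversed. With all 32 arrays in 1 fit, 62 genes were sustained and 3 reversed. Without genes under the median level the difference gave 1576, 6 h 1554, early only 587, late only 470, sustained 178 and reversed 48. With the mean of a gene's probe sets 9 were reversed, and with the probe set of largest variance the difference gave 278, 24 h 469 and late only 128. With a trended, robust eBayes the difference gave 1360, 6 h 1417, early only 448, late only 454, sustained 156 and reversed 33. With array weights 6 h gave 217, 24 h 1285, early only 59 and late only 387. With a size of at least 0.58 the difference gave 77, 6 h 28, 24 h 62, early only 4, late only 25, sustained 5 and reversed 0, while classes set by the calls at each time alone gave 497 early only and 611 late only.

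Without inhibitor 6 h arrays 3 and 4 the difference gave 50, 6 h 19, early only 1, late only 48, sustained 15 and reversed 0; the 24 h count was 856. Without arrays 1 and 2 it gave 2810, 6 h 3291, early only 1784, late only 345, sustained 150 and reversed 75. Leaving out 1 array at a time gave 139 to 1415 for the difference, 114 to 1692 at 6 h, 467 to 774 at 24 h, 8 to 646 early only, 102 to 314 late only, 38 to 116 sustained and 2 to 27 reversed. The H460a difference (2 genes) and the line difference (15) gave 1 and 16 with the replicate block, 2 and 11 as deposited, and 3 and 24 without H460a vehicle 6 h array 3; without A549 inhibitor 6 h arrays 3 and 4, an alternative chosen after seeing the data, the line difference gave 17.

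Replicate numbers did not pair the samples: 6 of 24 same-number pairs of arrays had deviations correlated over 0.1 (range -0.236 to 0.211), and 5 of 16 arrays correlated best with their own number. With the replicate number as a block the difference gave 324, 6 h 392, 24 h 596, early only 53, late only 170, sustained 75 and reversed 4.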
